A study of Rattus norvegicus with 9 samples.

Results

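The expression of 10 transcription factor genes of the lung mesenchyme, the connective tissue cells that surround the airways and lie within the alveolar walls, was followed in rat lung fibroblasts across postnatal alveolar development. The genes were the T-box genes Tbx2, Tbx3, Tbx4 and Tbx5, the forkhead genes Foxf1 and Foxp1, the basic helix-loop-helix genes Tcf21 and Twist1, the homeobox gene Meox2 and the nuclear receptor gene Nr2f1. A probe set (a group of short probes for a transcript) counted for a gene when that gene was its only symbol in the platform annotation. The 10 genes had 21 such probe sets among 31042 measured, and the brightest over all arrays represented a gene, as for the 14217 genes of the array. No filter on low values was applied, so all 10 genes are described.

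Cells came from pups of postnatal day 2 (saccular stage, before septation), day 7 (alveolar stage, with secondary septation in progress) and day 21 (alveolar stage, with septation ended). Septation is the outgrowth of ridges that divide the saccules into alveoli. Each day had 3 samples, each pooling the cells of 5 pups (day 2) or 4 pups (days 7 and 21) from a different litter, and each on its own Affymetrix array. The labels name no strain, sex or treatment, so the groups differed by age and, for day 2, by the number of pups pooled. With 3 arrays per day the precision is limited. The cells were those that adhered to plastic within 45 min of dispersing the lung with trypsin and collagenase, so other adherent cells could be present.

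T-box factors bind DNA through a shared domain. Tbx4 and Tbx5 mark the mesenchyme of the embryonic lung and help to sustain its growth signals, while Tbx2 and Tbx3 act mainly as repressors that keep that mesenchyme dividing. Foxf1 is a forkhead target of hedgehog signals from the airway epithelium, and Tcf21 is a factor of interstitial fibroblasts, including lipid-storing ones. Twist1 is known for mesenchymal cell states and for fibrosis.

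In these cells 7 of the 10 genes were lower at day 21 than at day 7, where 24.4% of all genes were. From day 2 to day 7, 4 of the 10 were higher, where 7.02% of all genes were, and all 4 were among those 7. Both comparisons use the day 7 arrays. Meox2 had the widest swing and was 17.0-fold lower at day 21 than at day 7 (log2 change -4.08 ± 0.20 SE, limma adjusted p = 1.73e-07, n = 3 arrays per day). Tcf21, Nr2f1 and Tbx5 were lower by log2 -2.44 ± 0.26, -2.53 ± 0.32 and -2.31 ± 0.16 in the same comparison. Twist1 went the other way and was 3.02-fold higher at day 21 than at day 2 (log2 change 1.60 ± 0.29, adjusted p = 0.00298). The brightest probe sets of Tbx2 and Foxp1 passed the test in no comparison, while some of their dimmer ones did. Among the 7 falls to day 21, those of Tbx3 and Foxf1 depended on the probe set. With the mean of all probe sets of the gene they were -0.08 and -0.17 (limma adjusted p = 0.742 and 0.664).

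**Figure D1:**
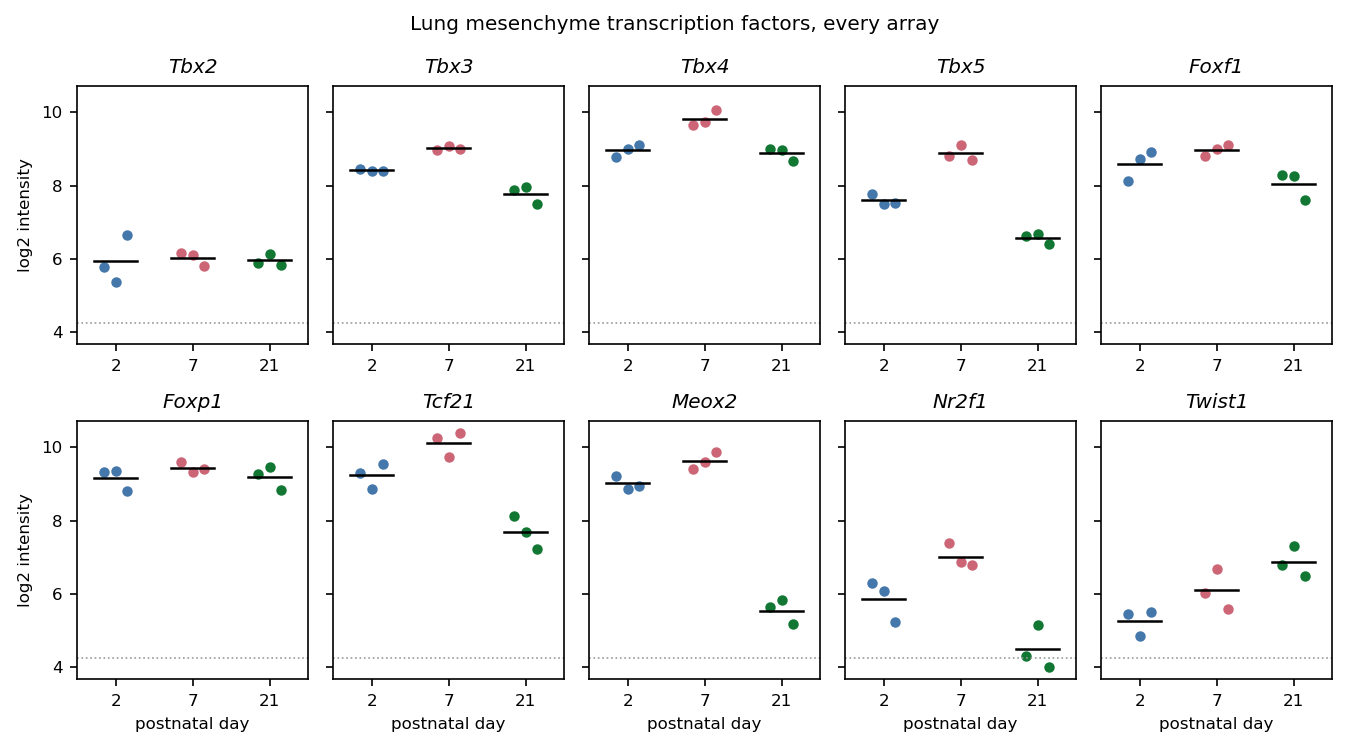
Log2 intensity (vertical axis) of the brightest probe set of each gene on every array, by postnatal day (horizontal axis, 3 arrays per day); black bars are day means and the dotted line is log2 4.25, the 25th percentile of all values. Meox2 lies between 8.87 and 9.87 on days 2 and 7 and between 5.17 and 5.82 on day 21, whereas Twist1 is highest on day 21.

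Markers of the labelled cell type were bright on every array. The mean log2 level of 22 general fibroblast markers was 10.68 to 11.02 on day 2, 10.92 to 11.07 on day 7 and 10.01 to 10.45 on day 21. Macrophage markers were also well above the low end (log2 4.25, the 25th percentile of all values). Their mean, over 24 genes, was 8.89 to 9.09 on day 2, 7.22 to 8.03 on day 7 and 9.31 to 9.81 on day 21. Array medians were log2 5.24 to 5.66. The 3′ to 5′ log2 difference of the Gapdh control probe sets, a sign of RNA quality, was between -0.11 and 0.25. That of beta-actin was 0.51 to 0.80 on day 2, 0.71 to 1.18 on day 7 and 0.49 to 0.73 on day 21. Its mean was thus highest on day 7 (0.94, against 0.70 and 0.60), as for most of the 10 genes, and its part in their values was not tested. In samples of mixed cells, fewer cells of a type and less RNA per cell cannot be told apart.

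RefSeq promoter windows (build GRCr8) were found for 7 of the 10 genes. In Tbx4, Tbx5 and Foxp1 the listed start lies inside the gene, and these are not shown. The others are Meox2, Nr2f1 and Tcf21, the 3 genes with the widest falls from day 7 to day 21, and Twist1, the gene that rose from day 2. The 250 bases before each start site are printed 5′ to 3′ on the gene's strand, so that the DNA in front of the fallers can be set beside that of the riser. Capitals mark any match, on either strand, to the T-box core GGTGTG, the forkhead motif TGTTTAC, the E-box CANNTG, the GC box GGGCGG or the TATA box TATAAA.
Meox2 (chr6:59583775-59584024, plus strand): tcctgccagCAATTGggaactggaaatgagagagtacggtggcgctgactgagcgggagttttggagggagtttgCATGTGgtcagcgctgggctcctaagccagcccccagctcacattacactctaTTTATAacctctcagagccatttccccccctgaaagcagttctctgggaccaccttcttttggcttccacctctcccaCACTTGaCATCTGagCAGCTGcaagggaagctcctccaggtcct
Tcf21 (chr1:24520249-24520498, plus strand): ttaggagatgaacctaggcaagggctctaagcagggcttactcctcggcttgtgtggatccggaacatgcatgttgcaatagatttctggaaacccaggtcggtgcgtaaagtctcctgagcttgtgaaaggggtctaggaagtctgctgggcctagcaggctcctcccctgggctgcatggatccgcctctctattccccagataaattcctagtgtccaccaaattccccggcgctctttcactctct
Nr2f1 (chr2:9785925-9786174, minus strand): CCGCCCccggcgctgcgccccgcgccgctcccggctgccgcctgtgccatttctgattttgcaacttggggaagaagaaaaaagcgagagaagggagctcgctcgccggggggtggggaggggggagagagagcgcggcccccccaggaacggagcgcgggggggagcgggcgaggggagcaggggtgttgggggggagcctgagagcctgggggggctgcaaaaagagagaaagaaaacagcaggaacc
Twist1 (chr6:56402059-56402308, plus strand): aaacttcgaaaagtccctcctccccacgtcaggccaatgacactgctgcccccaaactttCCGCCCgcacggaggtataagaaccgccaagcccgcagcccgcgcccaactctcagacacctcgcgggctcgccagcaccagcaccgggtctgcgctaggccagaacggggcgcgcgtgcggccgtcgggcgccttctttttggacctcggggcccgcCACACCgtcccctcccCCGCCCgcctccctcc

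The Meox2 window held 5 E-boxes and a TATA box at -122, counted from the start site. The Twist1 window held GC boxes at -190 and -16 and a T-box core at -32. In Nr2f1 a GC box stood at -250, and none of the 5 motifs was found in the Tcf21 window. Of 33469 rat promoter windows of this length, 65.5% held an E-box, 30.5% a GC box, 15.4% the T-box core, 12.9% a TATA box and 3.21% the forkhead motif. The GC content was 69.2% for both Nr2f1 and Twist1, 54.8% for Meox2 and 53.6% for Tcf21, against a median of 51.2% over all windows. Among the printed windows of Meox2, Tcf21 and Nr2f1, no motif was found in more than 1. The windows of Tbx4 and Tbx5, not shown and also of genes that fell, each held an E-box. That of Tbx4 also held GC boxes and, like that of Twist1, a T-box core (at -12). A match of letters is not a bound site.

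Tbx4 and Tbx5 rose to day 7 and fell again by day 21. Tbx4 was at log2 8.79, 9.01 and 9.10 on day 2, 9.66, 9.74 and 10.07 on day 7, and 9.01, 8.97 and 8.69 on day 21. Day 7 lay above both other days on every array, and days 2 and 21 overlapped. The change was 0.85 ± 0.17 from day 2 to day 7 (limma adjusted p = 0.0096) and -0.93 ± 0.17 from day 7 to day 21 (adjusted p = 0.00116). Between days 2 and 21 it was -0.08 ± 0.17 (adjusted p = 0.781).

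Tbx5 was at log2 7.78, 7.51 and 7.53 on day 2, 8.82, 9.12 and 8.70 on day 7, and 6.63, 6.68 and 6.41 on day 21. All 3 days were separated without overlap, in the order day 7, day 2, day 21. Tbx5 was 2.42-fold higher at day 7 than at day 2 (log2 change 1.27 ± 0.16, limma adjusted p = 0.00142) and then 4.96-fold lower at day 21 (adjusted p = 1.58e-06). Its net change from day 2 to day 21 was -1.04 ± 0.16 (adjusted p = 0.0012). Tbx5 kept its call in each of the 3 comparisons whichever single array was left out, but its net fall was lost relative to fibroblast markers, as given with that scale.

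Tbx3 was at log2 8.46, 8.40 and 8.41 on day 2, 8.99, 9.08 and 8.99 on day 7, and 7.89, 7.96 and 7.50 on day 21. The days did not overlap. It was higher at day 7 than at day 2 by 0.59 ± 0.16 (limma adjusted p = 0.035), lower at day 21 than at day 7 by log2 -1.24 ± 0.16 (adjusted p = 8.69e-05) and lower at day 21 than at day 2 by -0.64 ± 0.16 (adjusted p = 0.0137). The rise to day 7 missed the threshold without any single array of day 2 or day 7, with adjusted p-values of 0.0678 without day 7 replicate 3 to 0.116 without day 7 replicate 2. The net fall missed it without day 21 replicate 3 (adjusted p = 0.0502). Tbx3 had another 3 probe sets, all dimmer, with day means of 5.54 to 6.13 and no call in any comparison. With the mean of its 4 probe sets its changes were 0.09, -0.08 and 0.0082 in the same order, none called (adjusted p = 0.806, 0.742 and 0.979).

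Tbx2 was at log2 5.79, 5.36 and 6.64 on day 2, 6.16, 6.10 and 5.81 on day 7, and 5.88, 6.15 and 5.84 on day 21. Day 2 replicates 2 and 3 enclosed all other values. The changes were 0.09 ± 0.27 from day 2 to day 7 and -0.07 ± 0.27 from day 7 to day 21 (limma adjusted p = 0.901 and 0.884). Of its other probe sets, one was higher at day 21 than at day 7 (0.59 ± 0.18, adjusted p = 0.0267) and the other was not called.

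In the rat gene table Tbx2 and Tbx4 are neighbours on chromosome 10, with 0 protein-coding genes between them, and Tbx3 and Tbx5 are neighbours on chromosome 12. Of the first pair of neighbours, Tbx4 was called in both intervals and the brightest probe set of Tbx2 in neither. Of the second pair, Tbx5 and the brightest probe set of Tbx3 were called in all 3 comparisons, and the dimmer Tbx3 probe sets in none.

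Foxf1 was at log2 8.14, 8.74 and 8.93 on day 2, 8.80, 9.004 and 9.10 on day 7, and 8.30, 8.27 and 7.60 on day 21. Days 2 and 7 overlapped, and all day 21 values lay under day 7. The fall from day 7 to day 21 was -0.91 ± 0.24 (limma adjusted p = 0.0118), with 0.37 ± 0.24 from day 2 to day 7 (adjusted p = 0.436) and -0.55 ± 0.24 from day 2 to day 21 (adjusted p = 0.135). The last passed without day 2 replicate 1 (-0.78, adjusted p = 0.0445). The other probe set of Foxf1 was dimmer, was called in no comparison, and had day means of 6.36, 6.26 and 6.83. With the mean of both, the change from day 7 to day 21 was -0.17 (limma adjusted p = 0.664).

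Foxp1, a forkhead repressor also made by lymphoid and myeloid cells, gave different answers by probe set. Its brightest was at log2 9.32, 9.34 and 8.80 on day 2, 9.61, 9.33 and 9.41 on day 7, and 9.26, 9.45 and 8.83 on day 21, and the days overlapped. The second brightest was at 8.16, 8.21 and 8.23 on day 7 and 8.80, 8.87 and 8.51 on day 21, a rise of 0.53 ± 0.16 (limma adjusted p = 0.0257). Another was at 7.50, 7.89 and 8.12 on day 7 and 8.92, 8.99 and 8.61 on day 21, a rise of 1.01 ± 0.20 (adjusted p = 0.00226). In all, 2 of its 5 probe sets were called higher at day 21 than at day 7. Called higher than at day 2 were also 2, not the same pair. Every dimmer probe set had its highest mean on day 21. Macrophage markers rose from day 7 to day 21 in 23 of 24 cases, and their part in the values of the dimmer Foxp1 probe sets was not tested.

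**Figure D2:**
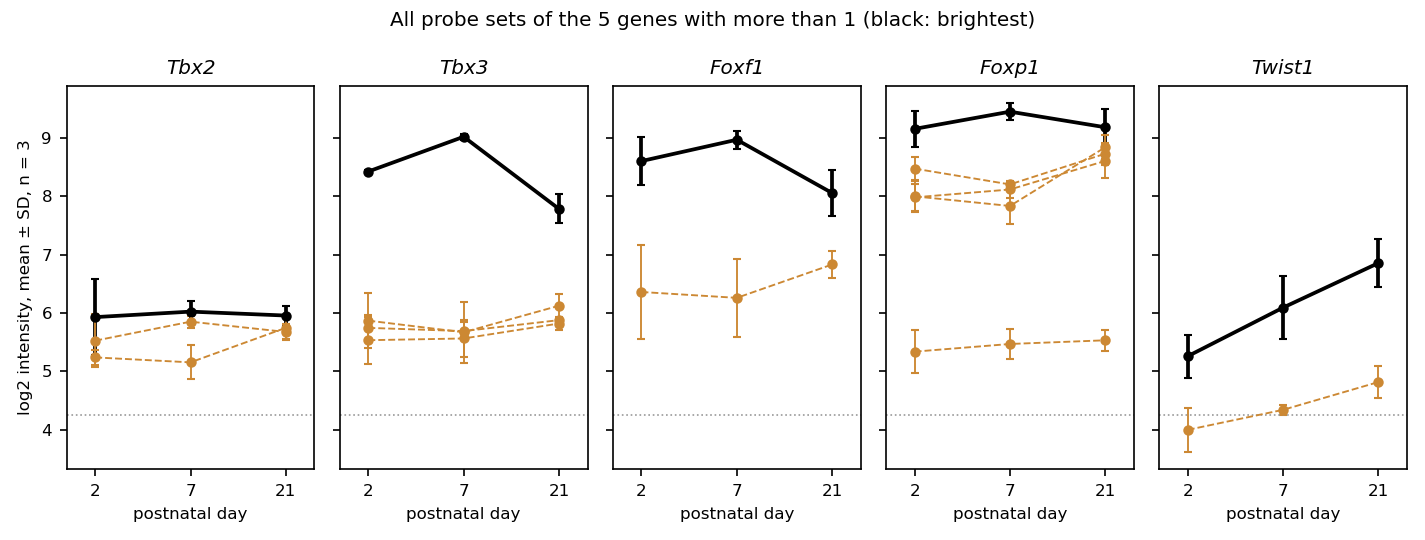
Mean log2 intensity ± SD (vertical axis, n = 3 arrays per day) of every probe set of the 5 genes with more than 1, by postnatal day; black lines are the brightest probe set, dashed lines the others, and the dotted line is log2 4.25. For Tbx3 and Foxf1 the dimmer probe sets do not follow the day 7 to day 21 fall of the brightest. Every dimmer probe set of Foxp1 has its highest mean on day 21, and both Twist1 probe sets climb.

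Tcf21 was at log2 9.31, 8.85 and 9.53 on day 2, 10.24, 9.72 and 10.40 on day 7, and 8.13, 7.70 and 7.22 on day 21. The days did not overlap. It was 5.43-fold lower at day 21 than at day 7 (limma adjusted p = 2.79e-05) and lower than at day 2 by log2 -1.55 ± 0.26 (adjusted p = 0.00181). The difference of 0.89 ± 0.26 between days 7 and 2 just missed the threshold (adjusted p = 0.0567). It passed in 5 of 10 other settings and in 3 of 9 fits with an array left out.

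Meox2, a homeobox factor that restrains the growth of vascular cells, was at log2 9.22, 8.87 and 8.95 on day 2, 9.40, 9.60 and 9.87 on day 7, and 5.63, 5.82 and 5.17 on day 21. Its day 21 arrays were over 3 log2 units below every earlier array. Against day 2 it was 11.1-fold lower (log2 change -3.47 ± 0.20, limma adjusted p = 1.64e-06). The difference of 0.61 ± 0.20 between days 7 and 2 did not pass (adjusted p = 0.0832), although their arrays did not overlap.

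Nr2f1, the orphan nuclear receptor COUP-TFI, was at log2 6.29, 6.07 and 5.23 on day 2, 7.38, 6.88 and 6.78 on day 7, and 4.30, 5.15 and 3.99 on day 21. The days did not overlap. It was higher at day 7 than at day 2 by 1.15 ± 0.32 (limma adjusted p = 0.0474), and 5.78-fold lower at day 21 than at day 7 (adjusted p = 9.79e-05). The net change was -1.38 ± 0.32 (adjusted p = 0.0116). On day 21 replicate 3 it lay below the low end of log2 4.25, where background can hold a fold down. The rise to day 7 was lost in 6 of 9 fits with an array left out, with adjusted p up to 0.166 without day 2 replicate 3. The net fall was lost without day 21 replicate 3 (-1.14, adjusted p = 0.0502).

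Twist1 was at log2 5.43, 4.84 and 5.51 on day 2, 6.03, 6.67 and 5.58 on day 7, and 6.79, 7.30 and 6.48 on day 21. Day 21 overlapped with day 7 and not with day 2. The steps were 0.83 ± 0.29 from day 2 to day 7 (limma adjusted p = 0.11) and 0.76 ± 0.29 from day 7 to day 21 (adjusted p = 0.071), neither past the threshold. The net rise, given above, was also called for the second Twist1 probe set (0.82 ± 0.21, adjusted p = 0.0164), which was dim, from a day 2 mean of 4.00 to 4.82.

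Counted over the 10 genes, 4 were called higher at day 7 than at day 2 (Tbx3, Tbx4, Tbx5 and Nr2f1), where 7.02% of all genes were, and 0 lower, where 4.41% were. At an unadjusted p under 0.05 by limma 7 passed, where 26.8% of all genes did, and all 7 were higher. From day 7 to day 21, 7 were called lower against 24.4% of all genes, and 0 higher against 13.7%, with 8 of 10 past an unadjusted p under 0.05, where 47.4% of all genes were, and Twist1 as the higher one. From day 2 to day 21, 5 were called lower (15.3% of all genes) and 1 higher (8.8%), and 7 passed an unadjusted p under 0.05, where 39.2% of all genes did. The median log2 change of the 10 genes was 0.72, -1.08 and -0.59 in that order, against 0.07, -0.01 and 0.02 for all genes. The first and second comparisons share the day 7 arrays, and the genes were chosen with earlier results known, so these counts describe the 10 genes and are no test of them. Over all 21 probe sets, 4, 3 and 4 were called higher in the same order, where 5.5%, 11% and 6.82% of all probe sets were. Called lower were 0, 7 and 5, where 3.44%, 19.1% and 12.2% of all probe sets were.

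These calls depend in part on how arrays are scaled to each other. Of all probe sets called between days 2 and 7, 61.5% were higher, against 41.5% after each array was centred on its median, which moved the median of all genes from 0.07 to -0.02. Between days 7 and 21 the share was 36.6%, against 48.0% after centring and 48.5% after quantile normalization, with the median moving from -0.01 to 0.10 and 0.04. Between days 2 and 21 it was 36.0%, against 47.3% after quantile normalization. With centring, Tbx5 and Nr2f1 kept their call as higher at day 7 than at day 2, while Tbx3 (0.50, limma adjusted p = 0.154) and Tbx4 (0.76, adjusted p = 0.0556) missed the threshold. The rise of Nr2f1 missed it after quantile normalization (1.05, adjusted p = 0.0535). Twist1 passed as higher at day 21 than at day 7 under both (0.87 and 0.94, adjusted p = 0.0106 and 0.012). The 7 falls from day 7 to day 21 passed under both scalings.

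**Figure D3:**
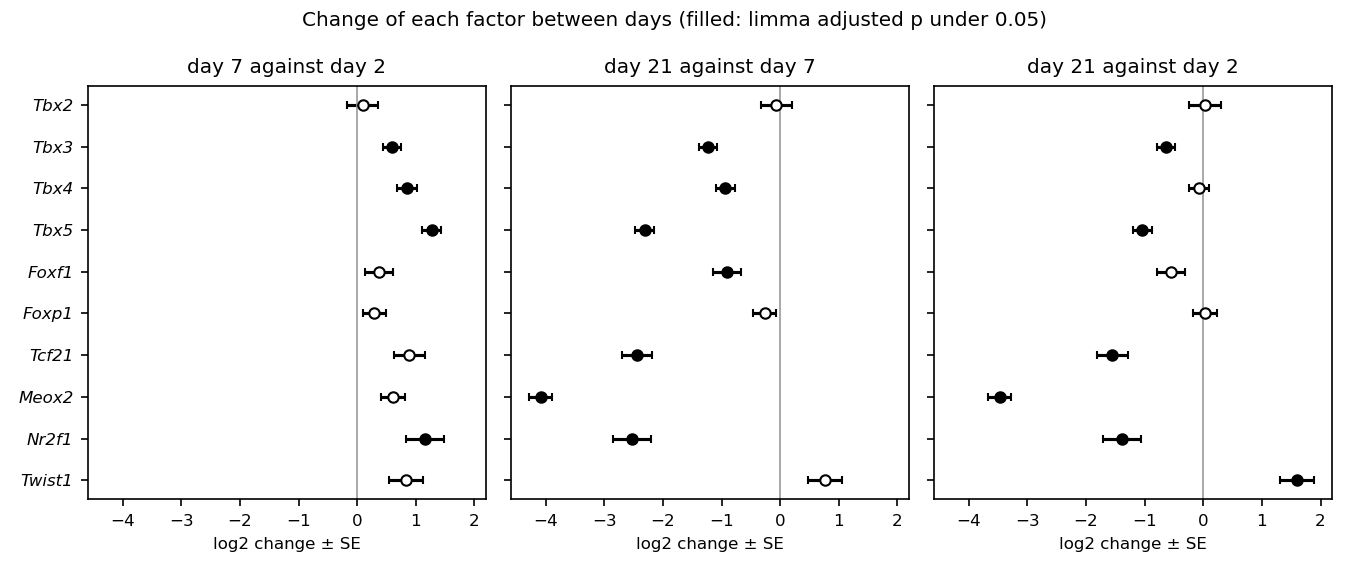
Log2 change ± SE from limma (horizontal axis) of each gene's brightest probe set in the 3 comparisons of days, n = 3 arrays per day; filled points have an adjusted p under 0.05. Tbx3, Tbx4, Tbx5 and Nr2f1 are filled on the right for day 7 against day 2, and 7 genes are filled on the left for day 21 against day 7.

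Day 21 replicate 3 was the lowest of its day for all 10 genes, with a mean of log2 6.77 over them against 7.18 and 7.34 on day 21 replicates 1 and 2. That array also had the highest macrophage mean of its day (9.81 against 9.46 and 9.31) and the lowest fibroblast mean (10.01 against 10.45 and 10.44). Without it the number called lower between days 2 and 21 was 3, in place of 5. On days 2 and 7 no array was lowest for more than 6 of the genes.

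Other cell markers moved between the same days as the 10 factors. Their part was not tested beyond the fit with the macrophage mean given below, where day and covariate cannot be fully told apart. Of all genes, 7.02% rose and 4.41% fell from day 2 to day 7. From day 7 to day 21, 13.7% rose and 24.4% fell. Macrophage markers fell in 15 of 24 cases from day 2 to day 7 and rose in 23 of 24 to day 21. Endothelial markers rose in 3 of 18 and then fell in 13 of 18, with list means of log2 6.17 to 6.46, 6.65 to 6.93 and 5.40 to 5.82 on days 2, 7 and 21. Proliferation markers rose in 4 of 21 and then fell in 19 of 21, with means of 7.09 to 7.28, 7.46 to 7.53 and 5.43 to 5.74. Of 13 cartilage markers, 7 fell and then 8 rose. Of 19 pericyte and smooth muscle markers, 4 rose and 1 fell to day 7, and 4 rose and 8 fell to day 21. Of 12 lymphocyte markers, 0 were called from day 2 to day 7, and 3 rose and 0 fell to day 21. Their array means were 4.08 to 5.02, near the low end, with day means of 4.27, 4.36 and 4.82. Among them Cd3e, of the T cell receptor complex, had day means of 3.61 to 3.72, so it did not share the list's rise.

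Epithelial markers rose in 7 of 18 cases and fell in 2 from day 7 to day 21, and of 7 mesothelial markers 1 rose. The surfactant gene Sftpc, a marker of alveolar type 2 cells, had day means of 8.91, 9.37 and 8.18, well above the low end. The mean of the 18 epithelial markers took the opposite course, at 6.58, 6.25 and 6.88 on days 2, 7 and 21. Of the 22 general fibroblast markers, 10 fell, 2 rose and 10 were not called from day 7 to day 21, with a mean change of -0.68 and a median of -0.24.

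**Figure D4:**
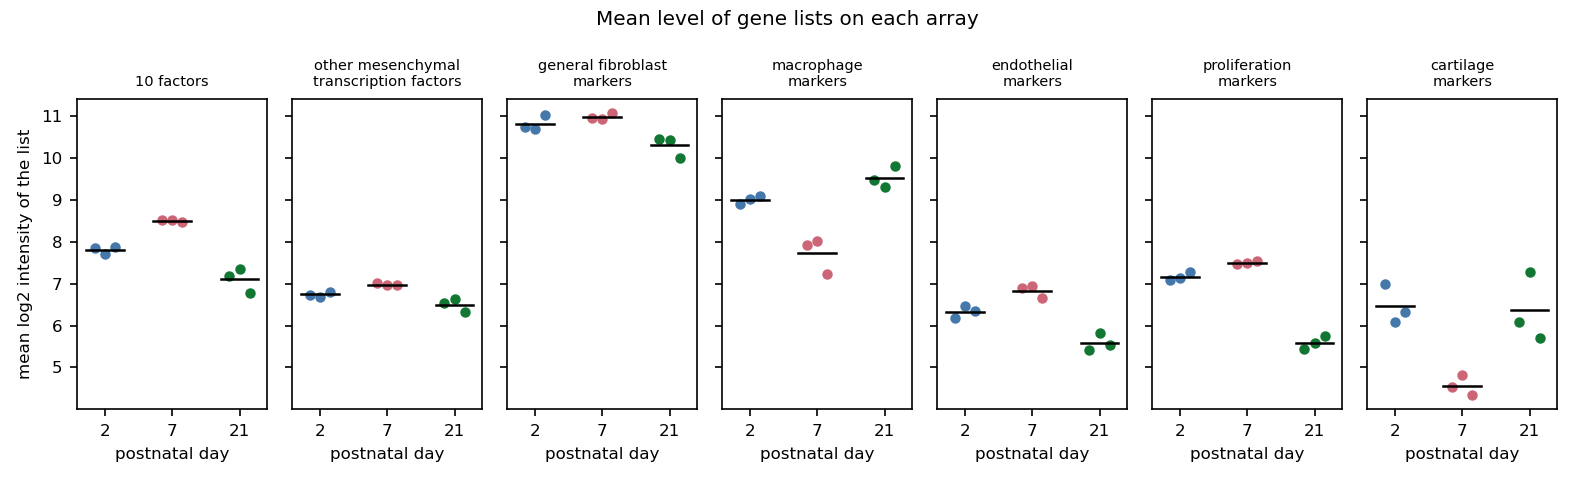
Mean log2 intensity (vertical axis) of each gene list on every array, by postnatal day, with black bars for day means. By day means, the 10 factors and the other mesenchymal transcription factors are highest on day 7 and lowest on day 21. So are general fibroblast, endothelial and proliferation markers, whereas macrophage and cartilage markers are lowest on day 7.

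Measured against the mean of the fibroblast markers on the same array, the falls from day 7 to day 21 of Meox2 (-3.40), Nr2f1 (-1.85), Tcf21 (-1.76), Tbx5 (-1.63) and Tbx3 (-0.55) still passed by limma, with adjusted p-values of 6.24e-09 to 0.0322. Those of Foxf1 (-0.23) and Tbx4 (-0.25) did not (adjusted p = 0.384 and 0.305). On this scale Twist1 was higher at day 21 than at day 7 by 1.45 (adjusted p = 0.000591) and Tbx2 by 0.62 (adjusted p = 0.0434). The median of all genes was 0.67 on this scale between those days, so Tbx2 rose less than the median gene. Of 31042 probe sets, 18452 were called higher there and 1875 lower. Between days 2 and 7, Tbx5 alone of the 10 remained past the threshold on this scale (1.10, adjusted p = 0.0096). Of all probe sets, 322 were called higher there and 955 lower. From day 2 to day 21, 12547 were called higher and 1053 lower. On the fibroblast scale the net falls from day 2 to day 21 of Tbx5 (-0.53, adjusted p = 0.071) and Tbx3 (-0.13, adjusted p = 0.621) were lost.

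With the macrophage mean of each array as a covariate, limma called none of the 10 genes between days 2 and 7 or days 7 and 21. At an unadjusted p under 0.05 it gave 1 and 2 of the 10. Over all probe sets it called 0 and 12 in those comparisons. Without adjustment 3709 and 3591 probe sets passed 0.05. The day 21 against day 7 values were then -2.81 for Meox2 (adjusted p = 0.0968) and -2.50 for Tbx5 (adjusted p = 0.129). Smaller values were left for Nr2f1 (-1.77), Tcf21 (-1.12), Tbx3 (-0.88), Foxf1 (-0.24) and Tbx4 (-0.15), with adjusted p-values of 0.514 to 0.923. The macrophage means of the 3 days do not overlap, so day and covariate cannot be fully told apart. Between days 2 and 21 Meox2 and Tbx5 stayed called lower with it, while Tcf21 (-1.16, adjusted p = 0.0555), Tbx3, Nr2f1 and the rise of Twist1 (1.37, adjusted p = 0.0688) missed the threshold.

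How each factor moved beside a related gene on the same array is unaffected by a shift common to a whole array. The difference between Tbx4 and Tbx5 widened from 0.94 ± 0.38 (SD, n = 3) on day 7 to 2.32 ± 0.06 on day 21, since Tbx5 fell further than Tbx4. It was 1.36 ± 0.31 on day 2, and day 21 overlapped with neither (exact two-sided permutation p = 0.1 for both, the smallest that 3 against 3 arrays allow).

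Meox2 less Meox1, its paralogue, went from 5.55 ± 0.57 on day 7 to 1.18 ± 0.22 on day 21 (exact permutation p = 0.1), and Meox1 itself had no call in any comparison. Meox1 was dim, with day means of 3.78, 4.07 and 4.36 near the low end. Twist1 less Twist2 was -0.49 ± 0.38, 0.59 ± 0.30 and 2.06 ± 0.35 on days 2, 7 and 21 (SD, n = 3), with no overlap between days. Twist2 was lower at day 21 than at day 7 by limma (-0.71 ± 0.22, adjusted p = 0.0313), while Twist1 rose overall. The difference was largest on day 21.

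Nr2f2, the other COUP-TF receptor, was called in the same directions as Nr2f1: 0.73 ± 0.16 to day 7 (limma adjusted p = 0.0152) and -1.37 ± 0.16 to day 21 (adjusted p = 4.97e-05). Nr2f1 less Nr2f2 was lower on day 21 (-4.42 ± 0.34) than on day 7 (-3.26 ± 0.24) without overlap (exact permutation p = 0.1). Tbx2 less Tbx3 was higher on day 21 (-1.83 ± 0.17) than on day 7 (-2.99 ± 0.17), again without overlap (exact permutation p = 0.1). Foxp1 less Foxp2 overlapped between all days. In all, 6 pairs were compared over 3 pairs of days each, and a p of 0.1 cannot pass any threshold used here.

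**Figure D5:**
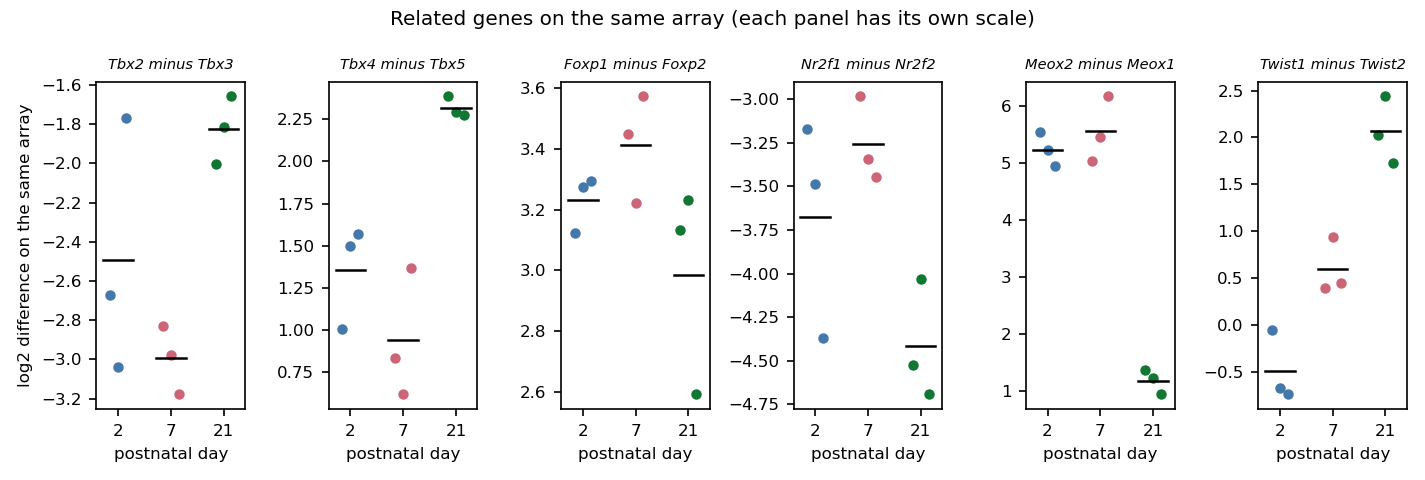
Difference in log2 intensity between related genes on the same array (vertical axis, own scale in each panel), by postnatal day with 3 arrays each and black bars for means. Meox2 less Meox1 drops to between 0.94 and 1.37 on day 21, and Twist1 less Twist2 climbs from below 0 on day 2 to at least 1.73 on day 21.

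Of 49 other mesenchymal transcription factors measured, 4 rose from day 2 to day 7, where 7.02% of all genes did, and 45 did not pass. The 4 were Etv1 (log2 change 1.27 ± 0.23) and Etv4 (1.05 ± 0.20), which respond to fibroblast growth factors, the Notch target Hey1 (0.91 ± 0.18) and Nr2f2. From day 7 to day 21, 22 fell, 3 rose and 24 did not pass, where 24.4% of all genes fell and 13.7% rose. Etv1 (-3.15) and Etv4 (-2.91, to a mean of 3.43, below the low end) fell most, followed by Gli2 (-2.15), a transducer of hedgehog signals, and Aebp1, a regulator of matrix and fat cell genes, rose most (2.21 ± 0.28, limma adjusted p = 8.87e-05). From day 2 to day 21, 16 fell, 5 rose and 28 did not pass, where 15.3% of all genes fell and 8.8% rose. Aebp1 (2.03), Etv1 (-1.88), Etv4 (-1.86) and Gli1 (-1.80) had the largest changes there. The list's median change was 0.22, -0.28 and -0.17 in the 3 comparisons, against 0.07, -0.01 and 0.02 over all genes.

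Candidate target genes of the 10 factors, 30 of them measured, were drawn up from general knowledge, and some, such as Cdh11 and Pdgfrb, also stand among the cell type markers. From day 2 to day 7, 5 rose, where 7.02% of all genes did, and 25 did not pass. Among the 5 were the mesenchymal signals Wnt2 (1.29 ± 0.28, limma adjusted p = 0.0147) and Wnt5a (1.22 ± 0.27, adjusted p = 0.0176), the adhesion gene Cdh11 (0.96 ± 0.18) and Pdgfrb (0.83 ± 0.21). From day 7 to day 21, 13 fell, 4 rose and 13 did not pass, where 24.4% of all genes fell and 13.7% rose. Wnt2 changed by -3.55 ± 0.28 (adjusted p = 3.18e-06) to a mean of 4.28, next to the low end, and Cdh11 by -3.48 ± 0.18. Adh1c (-3.85), an alcohol dehydrogenase, and Gja5 (-3.50), a gap junction gene, also fell.

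Fgf10, the growth factor that T-box genes help to sustain in embryonic lung mesenchyme, was at a mean of log2 5.57 on day 7 and 4.26 on day 21 (-1.31 ± 0.21, limma adjusted p = 0.000478). Its day 21 mean was next to the low end. The cell cycle inhibitor Cdkn1a, which Tbx2 and Tbx3 can repress, was higher at day 21 than at day 7 by 1.08 ± 0.16 (adjusted p = 0.000227). Another inhibitor, Cdkn1c, was lower by -1.69 ± 0.15 (adjusted p = 9.02e-06). From day 2 to day 21, 9 of the 30 fell and 4 rose, where 15.3% of all genes fell and 8.8% rose. These values show which genes moved between the same days as the factors and no more.

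Likeness of profile was measured by the root mean square difference of mean-centred log2 values over the 9 arrays, across 14217 genes, and says nothing of shared control. Nearest to Meox2 were Srpx2, a secreted protein (0.19, where Meox2's own spread was 1.81), and Mme, the peptidase neprilysin (0.22). Limch1 (0.18) and Igsf10 (0.20) were nearest to Tcf21, whose spread was 1.06. Zfp532 and Olfml1 (both 0.18) were nearest to Tbx5, Zc3h7b (0.08) and Lhfpl6 (0.10) to Tbx4, and Xpo7 and Antxr1 (both 0.09) to Tbx3.

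Phf14 (0.22) and Dach1 (0.25) were nearest to Nr2f1, and Pbx3 (0.14), a Hox cofactor, and Nit1 (0.15) to Foxf1. The growth factor Fgf18 (0.27) and Wnt5a (0.32) were nearest to Twist1. Fgf18 had day means of log2 5.55, 6.49 and 7.10, the same order of days as Twist1. Alkbh5 (0.09) and Sepsecs (0.10) lay nearest to Foxp1, and Eml2 (0.15) and Hhipl1 (0.16) to Tbx2, both with little spread of their own. Among the 10 factors, Tbx5 and Nr2f1 were each other's nearest (0.40), as were Tbx3 and Foxf1 (0.27), and Meox2 stood farthest from any other (Tcf21 at 0.89), followed by Twist1 (Tbx2 at 0.71).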

How the data were processed

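Deposited values were one intensity per probe set and array on a linear scale. Per the submitters' processing notes, the authors used RMA (affy), with no version, probe set definition or filter stated. Array medians still differed, from log2 5.24 to 5.66, so the deposited values do not share a common distribution. They were taken to log2 here. RMA narrows changes of dim probe sets.

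Of 31099 probe sets, 57 AFFX controls were left out. In the platform annotation 20826 of the rest had 1 symbol, 436 several and 9780 none. Tests used limma 3.58.1 in R 4.3.3, with 1 mean for each day fitted to all 9 arrays, 6 residual and 5.69 prior degrees of freedom, and Benjamini-Hochberg adjustment over 31042 probe sets, calling at an adjusted p under 0.05. The procedure was tested on simulated data. Errors of changes are SEs and of levels SDs. Paralogue differences used exact permutation tests (scipy 1.17.1). Replicates are different litters, so p-values measure the spread between litters.

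All 10 genes were named, and from each list up to 4 called genes with the largest change, paralogues, and the 2 nearest profiles of each gene. Fgf10, Cdkn1a, Cdkn1c, Sftpc and Cd3e were picked with their values known. The 10 genes and all lists were chosen with earlier results of these data known. Foxf2, the paralogue of Foxf1, was not analysed here. Alternatives were other scalings, filters, an offset, variance models, probe sets, covariates, a replicate block and leaving out each array.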

Additional observations from a re-analysis of the deposited data

How the results depend on the processing

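Litter numbers recur in each day, but only 2 of 9 same-numbered pairs of arrays had deviations correlated over 0.1 (-0.24 to 0.41, against -0.28 to 0.24 for other pairs), so the numbers were not taken to pair the samples. The replicate block left the counts at 4 genes higher from day 2 to day 7, 7 lower from day 7 to day 21, and 1 higher and 5 lower from day 2 to day 21. Genes called higher from day 2 to day 7 numbered 2 with arrays centred on their medians, 0 with the macrophage covariate, 1 relative to fibroblast markers, and 2 to 6 with an array left out: 2 without day 2 replicate 2 or 3 or day 7 replicate 1 or 3, and 6 without day 21 replicate 3. Genes called higher from day 7 to day 21 numbered 1 with centring, quantile normalization or the mean of all probe sets, 2 relative to fibroblast markers (where 18452 of 31042 probe sets were higher), and 0 to 1 with an array left out (1 without day 7 replicate 2 or day 21 replicate 3). Those called lower there numbered 0 with the macrophage covariate and 5 with the mean of all probe sets (without Tbx3 and Foxf1). Between days 2 and 21 that covariate left 0 higher and 2 lower, the fibroblast scale left 3 lower, and leaving out an array left 3 to 6 lower. Signs turned as follows. For day 7 against day 2, Tbx2 was -0.0030 with centring and -0.079 on the fibroblast scale, and with the covariate Foxf1 was -0.11, Foxp1 -0.17, Tcf21 -0.041 and Meox2 -0.29. From day 7 to day 21, Tbx2 was 0.043 with centring, 0.10 with quantile normalization, 0.62 on the fibroblast scale and 0.12 as the mean of its probe sets. Foxp1 was 0.39 with the covariate, 0.42 on the fibroblast scale and 0.36 as the mean of its probe sets. Between days 2 and 21, Tbx4 was 0.047 with quantile normalization, 0.15 with the covariate and 0.43 on the fibroblast scale, Tbx2 -0.13 with the covariate, and Tbx3 0.0082 as the mean of its probe sets. By the second brightest probe set, Tbx3 was -0.20, 0.45 and 0.26 and Foxf1 -0.10, 0.57 and 0.47 in the 3 comparisons (day 7 against 2, 21 against 7, 21 against 2), and Foxp1 -0.27 and 0.53 in the first and second. With the mean of all probe sets, the change of Tbx2 less Tbx3 from day 2 to day 7 was 0.019, and that of Foxp1 less Foxp2 was -0.087, 0.20 and 0.11. With an array left out, Tbx2 ranged from -0.19 to 0.45 from day 2 to day 7, and from day 2 to day 21 Tbx2 ranged from -0.26 to 0.38, Foxp1 from -0.15 to 0.20 and Tbx4 from -0.17 to 0.022. In each case the cause was not tested. Dim signal limits Nr2f1 on day 21, Meox1, Twist2 and the second Twist1 probe set. Meox2 on day 21 (mean 5.54) and the brightest Twist1 probe set on day 2 (5.26) lay near the array medians of log2 5.24 to 5.66. The Tbx2 probe sets had day means of 5.16 to 6.02. Low signal can narrow changes in these too.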
